A study of Mus musculus with 4 samples.

Results

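The Cyp2b genes encode a subfamily of cytochrome P450 enzymes, and their transcripts were read in mouse liver with and without hepatocyte Myd88, on a control and on a high-fat diet. The members were the 5 genes Cyp2b9, Cyp2b10, Cyp2b13, Cyp2b19 and Cyp2b23, out of 22180 genes that had a probe set carrying 1 symbol in the platform annotation. Each symbol was carried by 1 probe set, so no choice between probe sets was needed, and no further probe set carried a Cyp2b symbol alone or with others. The genes were picked with their values on these arrays already known, so those values are given as a description, without a test.

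The 4 groups held total liver RNA of C57Bl6 mice aged 16 weeks, with 1 Affymetrix array each. All mice carried loxP-flanked Myd88 (MyD88 lox/lox), including those called wild type here. The knockout mice also carried ALB Cre, a recombinase under the albumin promoter, which acts in hepatocytes, so other liver cells keep the gene. Wild type and knockout were each fed control diet with 9.4% fat or high-fat diet with 60% fat. RNA of 4 to 5 mice, selected for RNA quality, was pooled for each array. The spread between mice was therefore not measured, and no difference below has a p-value. Fewer cells of a type and less RNA per cell cannot be told apart in such samples.

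P450 enzymes of the CYP2B subfamily sit in the endoplasmic reticulum, mostly of hepatocytes, and oxidise drugs, steroids and fatty acids with electrons supplied by P450 reductase. Cyp2b10 is the classic target of CAR (Nr1i3), the nuclear receptor activated by phenobarbital. Cyp2b9 and Cyp2b13 are known in mouse liver for higher expression in females, a bias set by the pattern of growth hormone secretion through STAT5, while Cyp2b19 is known as an epoxygenase of keratinocytes. In the RefSeq gene table (GRCm38.p6) the 5 genes lie in 1 cluster on chromosome 7, in the order Cyp2b10, Cyp2b13, Cyp2b9, Cyp2b23 and Cyp2b19, together with 3 Cyp2b pseudogenes and with genes of the Cyp2a, nucleotide-binding receptor and vomeronasal receptor families between them.

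The members share sequence, and a promoter was found in RefSeq (GRCm38.p6) for 5 of 5. The windows run from 250 bases before to 50 bases after the annotated start. Those of Cyp2b9 (chr7:26173159-26173458, plus strand) and Cyp2b13 (chr7:26061245-26061544, plus strand) are shown whole because these genes had the widest ranges over the arrays, with the bases that differ between them in capitals.
Cyp2b9: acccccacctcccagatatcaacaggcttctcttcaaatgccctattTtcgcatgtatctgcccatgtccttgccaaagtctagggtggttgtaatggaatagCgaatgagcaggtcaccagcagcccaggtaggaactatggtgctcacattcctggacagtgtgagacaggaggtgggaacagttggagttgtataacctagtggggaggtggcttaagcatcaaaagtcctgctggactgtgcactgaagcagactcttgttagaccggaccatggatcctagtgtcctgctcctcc
Cyp2b13: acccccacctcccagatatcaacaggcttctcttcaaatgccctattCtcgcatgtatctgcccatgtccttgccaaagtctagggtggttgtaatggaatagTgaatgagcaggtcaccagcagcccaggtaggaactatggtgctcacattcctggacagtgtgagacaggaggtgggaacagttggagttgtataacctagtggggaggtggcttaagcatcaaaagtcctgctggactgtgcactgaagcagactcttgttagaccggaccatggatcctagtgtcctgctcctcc
Without any gap the pair differed at 2 of 300 positions, T48C and C104T, counted from 1 at the 5′ end of the window with the Cyp2b9 base first, which is 99.3% identity. The window of Cyp2b10 (chr7:25897408-25897707, plus strand) was 77.2% identical to that of Cyp2b9 over 289 aligned bases. Against Cyp2b9, Cyp2b19 was 76.9% and Cyp2b23 79.0% identical. Cyp2b10 and Cyp2b23 were more alike, with 85.1% identity over 261 aligned bases.

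Close to the start, Cyp2b9 and Cyp2b13 differed from the other members. The motif ATAAAAG, which resembles a TATA box, and the motif TTGCATAA, which resembles sites bound by C/EBP factors, were searched on both strands, and both were chosen after the promoters had been read. Both were found in Cyp2b10, Cyp2b19 and Cyp2b23, on the strand of the gene and 31 bases apart from start to start in each, without overlap. ATAAAAG began 27 bases before the annotated start in Cyp2b10, 9 bases before it in Cyp2b19 and 54 bases before it in Cyp2b23. Neither was found in Cyp2b9 or Cyp2b13. The stretches aligned with the ATAAAAG match of Cyp2b10 show this difference, with the match in capitals.
Cyp2b10: cggggccagcATAAAAGatcctgctgg
Cyp2b19: caggttcaccATAAAAGatcctgctgg
Cyp2b23: cggggccagcATAAAAGgttctgctgg
Cyp2b9: tggcttaagcatcaaaagtcctgctgg
Cyp2b13: tggcttaagcatcaaaagtcctgctgg
The stretches around the TTGCATAA match are shown in the same way; that of Cyp2b19 has 25 letters and the others 24, so the ends of the lines are not in register.
Cyp2b10: agctgaagTTGCATAActgagtgg
Cyp2b19: agctggagTTGCATAAgtgagtagg
Cyp2b23: agctgaagTTGCATAActgagtgg
Cyp2b9: agttggagttgtataacctagtgg
Cyp2b13: agttggagttgtataacctagtgg
Of 32851 promoters of the same length, 5.42% held ATAAAAG and 0.743% held TTGCATAA. The general STAT motif TTCNNNGAA, which reads the same on both strands, was in 8.30% of promoters and in 0 of the 5 members. The elements through which CAR acts on Cyp2b10 are known to lie farther upstream than these windows.

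The deposited values are log2 expression values, on which a difference of 1 is 2-fold. Array medians lay between 3.53 and 3.56, and Pearson's r between pairs of arrays, across probe sets, ran from 0.985 to 0.990. Genes with a mean below the 40th percentile of all genes (a log2 value of 3.47) were set aside as dim, which left 13308. Myd88 itself was lower in knockout by -0.19 on control diet and by -0.21 on high-fat diet in log2 difference. Both values lay inside the central 95% of genes (-0.45 to 0.41 and -0.46 to 0.56). With high-fat diet Myd88 was higher by 0.33 in wild type and by 0.32 in knockout. Whether its probes cover what Cre deletes was not analysed here. Hepatocyte markers, 11 genes such as Alb and Ttr, had mean log2 values between 11.66 and 11.69 on the 4 arrays. The labels used here give no sex: the X-inactivation transcript Xist, which marks female cells, read between 3.07 and 3.23 on every array, below the filter. Genes of the Y chromosome were above the filter, with 7.67 to 8.23 for Eif2s3y, 4.82 to 5.67 for Kdm5d and 6.38 to 7.30 for Uty. All 3 were highest in the knockout on high-fat diet, where 31.2% of all genes above the filter were. Kdm5d and Uty were lowest in the wild type on control diet, where 22.9% of all genes were.

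Of the 5 members, 3 were above the filter. Cyp2b10, with a mean log2 value 0.13 above the filter value, was the nearest inside it and Cyp2b19, with a mean of 3.35, the nearest outside. Cyp2b13, with a mean of 3.68, passed through 1 array, since its mean over the other 3 arrays was 3.26. Nothing is read from counts over the 3 that passed, also because the members' choice used these differences.

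Cyp2b9 had the widest range of the family. On control diet its probe set (17475385) read 9.05 for wild type and 5.28 for knockout on the log2 scale. On high-fat diet it read 7.61 for wild type and 8.60 for knockout. The knockout on control diet was the low array, 2.32 below the next, and the other 3 lay within 1.44 of each other. From high to low the order was wild type on control diet, knockout on high-fat diet, wild type on high-fat diet and knockout on control diet, with gaps of 0.45, 0.996 and 2.32. Without replicates, no neighbours in this order can be said to differ beyond the spread between mice.

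Cyp2b13 had the same order of arrays over a narrower range. Its probe set (17475373) gave log2 values of 4.97 for wild type and 2.95 for knockout on control diet. The high-fat values were 3.30 for wild type and 3.52 for knockout. Here the wild type on control diet stood alone, 1.45 above the next array, and the other 3 values were close to or below the filter. RMA compresses differences among probe sets as dim as these. Whether near-identical copies or pseudogenes feed the probe sets of Cyp2b9 and Cyp2b13 was not tested, as probe sequences were not analysed here. Between the wild type on control diet and the knockout on high-fat diet, Cyp2b9 differed by 0.45 and Cyp2b13 by 1.45, so the pair did not move in parallel between those arrays.

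Cyp2b10, the drug-inducible member, stayed within a range of 0.41. The log2 values of its probe set (17475360) on control diet were 3.58 for wild type and 3.35 for knockout. On high-fat diet they were 3.73 and 3.75. Both high-fat arrays were above both control diet arrays, and the knockout on control diet was again the low one. All 4 values were near the filter value of 3.47.

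Cyp2b19 and Cyp2b23 were below the filter on every array. Cyp2b19 (probe set 17475447) ranged from 3.25 to 3.41, with the knockout on high-fat diet lowest. Cyp2b23 (probe set 17488094) ranged from 2.996 to 3.31. It had the order of arrays of Cyp2b9 and Cyp2b13, although its highest and lowest values were only 0.32 apart. Keratinocyte markers were likewise dim: 8 of 10 with a probe set, Krt14 and Trp63 among them, were below the filter, and the 10 averaged between 3.33 and 3.44 on the 4 arrays.

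**Figure D1:**
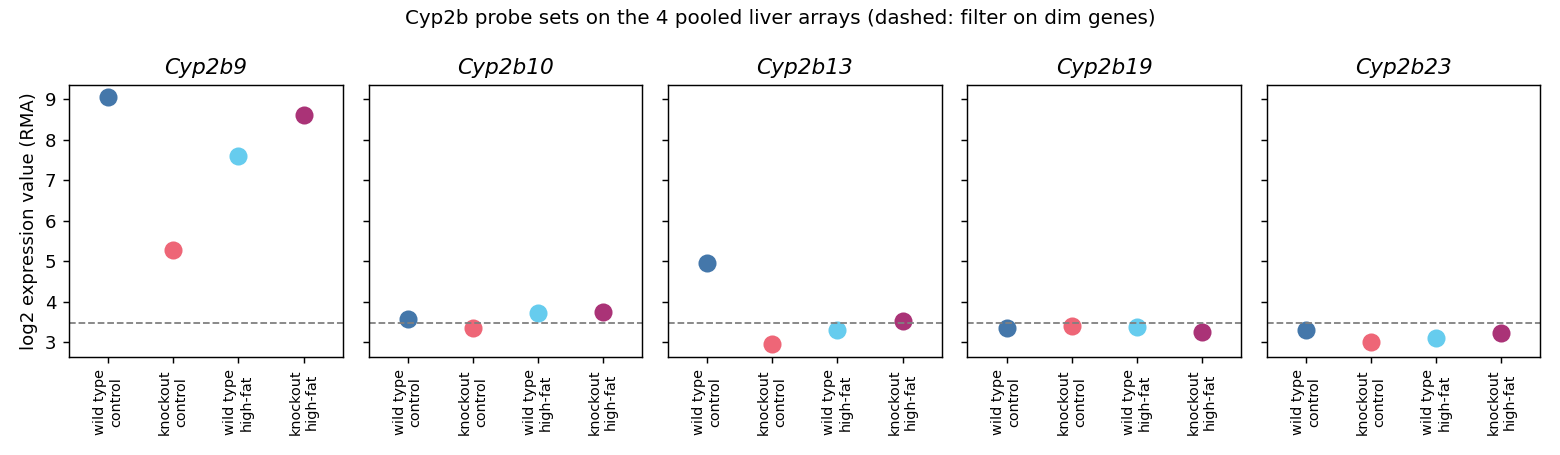
Log2 expression value (RMA, vertical axis) of each Cyp2b probe set on the 4 pooled arrays (1 point per array); the dashed line is the filter value of 3.47. Cyp2b9 spans 5.28 to 9.05 and Cyp2b13 spans 2.95 to 4.97, while the other 3 members stay near or below the line.

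The first comparison was that of diets among wild-type mice. High-fat feeding went with 2.72-fold less Cyp2b9 signal, a log2 difference of -1.44, and with less Cyp2b13 signal, by -1.67, down to a value below the filter, so that no fold is given for it. Cyp2b10 was higher by 0.15, Cyp2b19 by 0.02 and Cyp2b23 was lower by -0.20. Of the 3 members above the filter, 2 were at least 2-fold lower and 0 at least 2-fold higher. Among all 13308 genes, 0.564% were at least 2-fold lower and 0.488% at least 2-fold higher. Counted from the lowest, Cyp2b9 was gene 26.

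In knockout mice the diet difference of Cyp2b9 had the opposite sign. It was 9.99-fold higher on high-fat diet, a log2 difference of 3.32, which was the largest positive difference of all genes above the filter. Cyp2b13 was higher by 0.58, between values of 2.95 and 3.52 that lay below and at about the filter, so its direction here is uncertain. The central 95% of genes lay between -0.52 and 0.57. Cyp2b10 was higher by 0.41 and Cyp2b23 by 0.23, both inside that range, and Cyp2b19 was lower by -0.16. So 1 of the 3 members above the filter was at least 2-fold higher, where 0.323% of all genes were, and 0 were lower by as much, where 0.286% of all genes were.

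The next comparison was that of genotypes on control diet. Cyp2b9 was 13.6-fold lower in knockout, a log2 difference of -3.77, the lowest of all genes above the filter. Cyp2b13 was lower by a log2 difference of -2.02, and since its knockout value of 2.95 was below the filter, no fold is given. Cyp2b10 was lower by -0.23 and Cyp2b23 by -0.32, within the central 95% of genes (-0.45 to 0.41), and Cyp2b19 was higher by 0.04. At least 2-fold lower were 2 of the 3 members above the filter and 0.158% of all genes, and at least 2-fold higher 0 members and 0.346% of all genes. This comparison and that of diet in wild type subtract the same array, the wild type on control diet, so their values for Cyp2b13, whose reading was high on that array alone, are not independent. Likewise, this comparison and that of diet in knockout share the array of knockout on control diet. Cyp2b9 was 2.32 below the next array there, so its extreme ranks in these 2 comparisons are not independent. The difference of diet differences also uses that array.

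On high-fat diet the genotypes were closer. Cyp2b9 was 1.99-fold higher in knockout, just under 2-fold, and was gene 32 from the highest. Cyp2b13 was higher by a log2 difference of 0.23, Cyp2b23 by 0.11 and Cyp2b10 by 0.03, and Cyp2b19 was lower by -0.14. At least 2-fold higher were 0 of the 3 members and 0.225% of all genes, and at least 2-fold lower 0 members and 0.165% of all genes. Centring each array on its median put Cyp2b9 at 1.02, past the fold counted, so its side of 2-fold rests on the scaling. The array of wild type on control diet enters neither this comparison nor that of diet in knockout. Over the 3 arrays without it, Cyp2b9 had a range of 3.32 and Cyp2b13 of 0.58.

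Subtracting the diet difference of wild type from that of knockout gave 4.76 for Cyp2b9, the highest of all genes, and 2.25 for Cyp2b13. It gave 0.26 for Cyp2b10, 0.42 for Cyp2b23 and -0.18 for Cyp2b19, all within the central 95% of genes (-0.62 to 0.73). Positive values of at least 2-fold were found in 2 of the 3 members and in 0.661% of all genes, and negative ones in 0 members and in 0.556% of all genes. For Cyp2b9 the 4.76 was made up of a lower high-fat value among wild types and a higher one among knockouts. For Cyp2b13 most of it was the difference in wild type, -1.67 against 0.58.

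**Figure D2:**
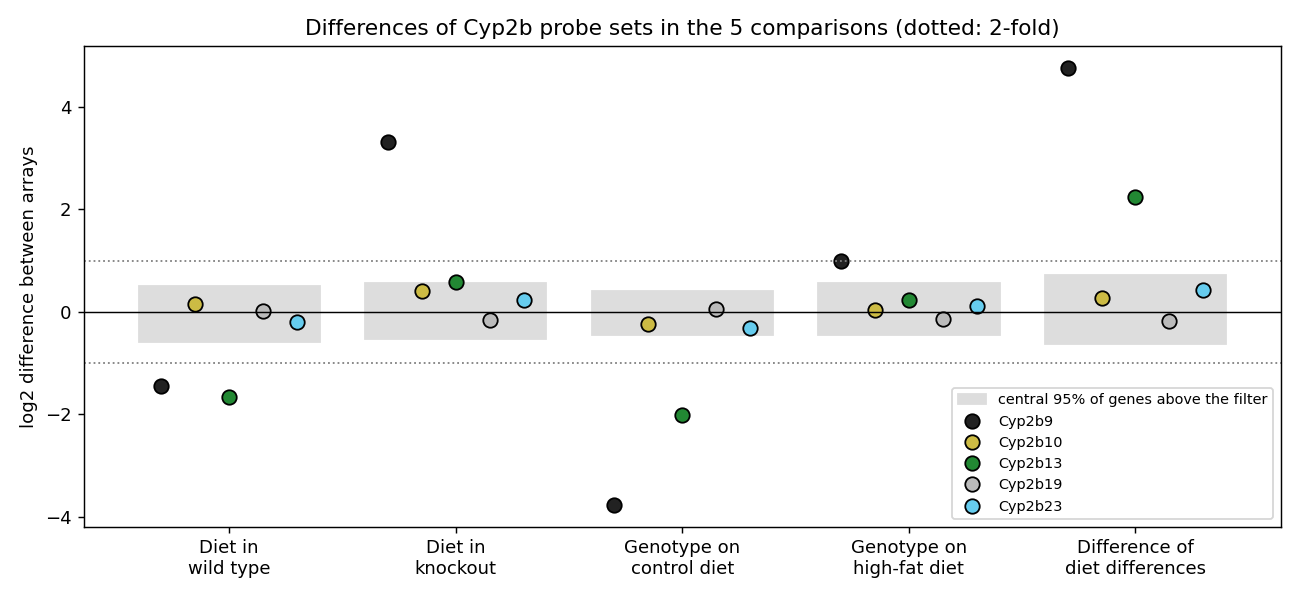
Log2 difference between arrays (vertical axis) of each member in the 5 comparisons, with grey boxes for the central 95% of the 13308 genes above the filter and dotted lines at 2-fold. Cyp2b9 lies outside the box in all 5 comparisons and Cyp2b13 in 4, while Cyp2b10, Cyp2b19 and Cyp2b23 stay inside each box.

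The genes most like Cyp2b9 were found among all genes above the filter by the root mean square difference between log2 profiles, each centred on its own mean over the 4 arrays. They were Acot3 and Acot4, which encode peroxisomal acyl-CoA thioesterases, Slco1a4, an organic anion transporter, Acss3, an acyl-CoA synthetase, and 2810013P06Rik. Their distances of 0.88 to 1.10 were large, because none spanned the 3.77 of Cyp2b9. The log2 values of Acot3 for wild type and knockout were 5.92 and 4.36 on control diet, and 5.33 and 5.58 on high-fat diet. Slco1a4, itself a known target of the drug-sensing receptors, read 6.72 and 5.24 on control diet and 6.04 and 6.47 on high-fat diet. Both had the order of arrays of Cyp2b9, with the knockout on control diet low, which picking by likeness to Cyp2b9 favours.

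Cyp2b13 had closer matches, at distances of 0.21 to 0.31. They were Socs2, a feedback inhibitor induced by growth hormone, Pdk4, a kinase that restrains pyruvate oxidation, Slc22a26, an organic ion transporter of the female-biased list, Cyp2j9, another P450, and Acot1, a cytosolic acyl-CoA thioesterase. Socs2 read 7.30 for wild type and 5.68 for knockout on control diet, and 5.44 and 5.93 on high-fat diet. Slc22a26 read 5.47 and 3.39 on control diet and 3.24 and 3.42 on high-fat diet. In each of the 5 the wild type on control diet stood above the other 3 arrays, which follows from picking them by likeness to Cyp2b13.

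**Figure D3:**
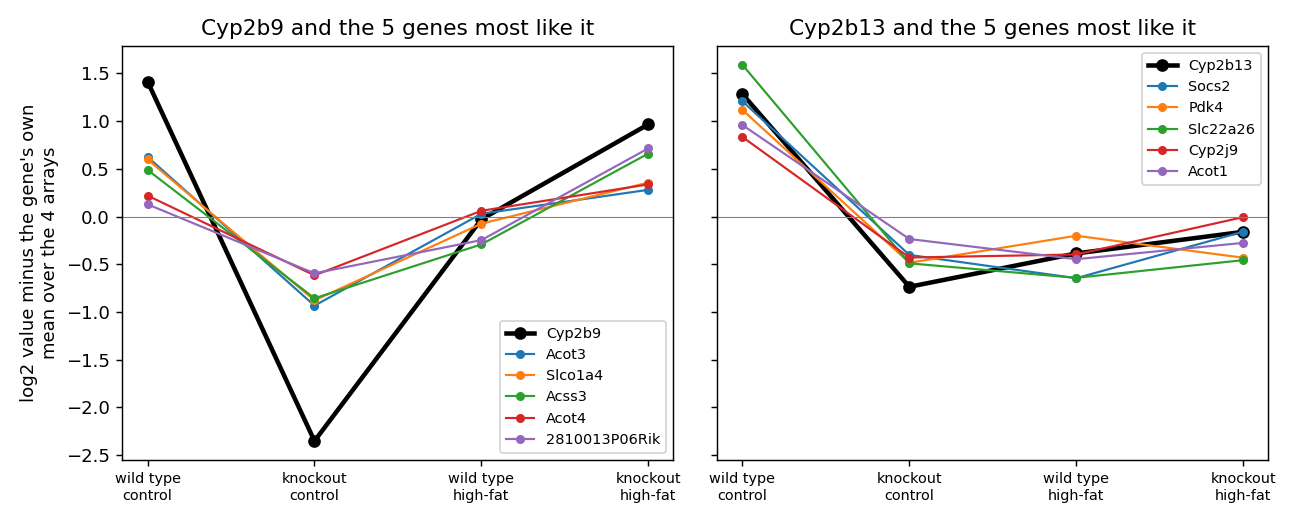
Log2 value minus the gene's own mean over the 4 arrays (vertical axis) for Cyp2b9 and Cyp2b13 (black) and for the 5 genes with the smallest root mean square distance to each. The matches of Cyp2b9 dip in the knockout on control diet, and those of Cyp2b13 are high in the wild type on control diet. Picking by likeness favours both patterns.

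The surroundings of the family were described with lists of genes. Among 5 measured Cyp2a and Cyp2f neighbours in the cluster, Cyp2a4, a steroid hydroxylase gene with female bias, was the 1 that reached 2-fold between 2 arrays. It was at least 2-fold lower for diet among wild types and genotype on control diet, where 0.564% and 0.158% of all genes were. Its log2 values for wild type and knockout were 9.21 and 8.12 on control diet, and 7.80 and 7.87 on high-fat diet, so it too was highest in the wild type on control diet. It did not share the high reading of Cyp2b9 in the knockout on high-fat diet. Cyp2a12 and Cyp2f2, abundant hepatic P450 genes farther along, differed by no more than 0.14 in any comparison between 2 arrays.

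CAR and its partners moved by less than 2-fold. Nr1i3, which encodes CAR, read 9.40 for wild type and 9.10 for knockout on control diet, and 9.97 and 9.72 on high-fat diet. Its high-fat values were the higher ones for each genotype, by 0.57 and 0.62, whereas Cyp2b9 went in opposite directions. Both differences of Nr1i3 were above the central 95% of genes, which ended at 0.51 in wild type and 0.57 in knockout. Nr1i2, which encodes PXR, the related pregnane receptor, differed with diet by -0.40 among wild types and by -0.01 among knockouts. Of the 10 measured receptors and partners, 0 reached 2-fold in any of the 5 comparisons. Among all genes only 0.391% to 1.22% did so per comparison, so nothing is read from this count.

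Other targets of CAR and PXR were measured for 31 genes. With high-fat feeding of wild types 4 were at least 2-fold lower and 0 higher, where 0.564% and 0.488% of all genes were. The median log2 difference was -0.19 against -0.03 over all genes. Read from each gene's dimmest probe set, that median was -0.31. In knockout 1 was at least 2-fold higher and 0 lower, where 0.323% and 0.286% of all genes were, with a median of 0.24 against 0.01. On control diet 3 were lower and 0 higher in knockout, where 0.158% and 0.346% of all genes were, with a median of -0.25 against -0.02. On high-fat diet 1 was higher, where 0.225% of all genes were, with a median of 0.18 against 0.02. Cyp2c38, another hepatic P450 gene, had log2 values of 10.53 (wild type) and 8.43 (knockout) on control diet and of 7.59 and 9.24 on high-fat diet. Gstm3, a glutathione transferase gene, read 8.03 and 6.47 on control diet and 5.52 and 5.86 on high-fat diet. The wild type on control diet was the highest array for 17 of the 31, or 54.8%, against 28.1% of all genes above the filter.

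Genes known for sex-biased expression in liver were also examined, since Cyp2b9 and Cyp2b13 belong among them. Of 15 measured female-biased genes other than the members, 6 were at least 2-fold lower for diet among wild types and 5 at least 2-fold lower for genotype on control diet, with 0 higher in either. Among all genes 0.564% and 0.158% were lower by as much. The list's medians were -0.61 and -0.66, against -0.03 and -0.02 over all genes. Of 26 listed genes with a probe set, these 15 were above the filter. Some passed through the wild type on control diet alone, such as Slc22a26, which read 3.24 to 3.42 elsewhere. Such genes can only come out lower against that array, and Slc22a26 is among the 6 and the 5. On high-fat diet 2 were at least 2-fold higher in knockout, where 0.225% of all genes were, with a median of 0.40 against 0.02. With diet in knockout 1 was at least 2-fold higher, where 0.323% of all genes were, with a median of -0.01 against 0.01. Abcd2, a peroxisomal fatty acid transporter, had log2 values of 7.83 (wild type) and 6.46 (knockout) on control diet and of 5.90 and 7.11 on high-fat diet. Cyp17a1, a steroid hydroxylase, differed from Cyp2b9 and Cyp2b13 in being highest in knockout on control diet, at 8.13. The wild type on control diet was the highest array for 9 of the 15 and the lowest for 0, against 28.1% and 22.9% of all genes. The 9 include Slc22a26 and Cyp3a44, which passed the filter through that array, so they could only be highest there. Cyp3a44 read 4.25 there and 3.30 to 3.43 elsewhere. Both also enter the list's medians.

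Male-biased genes were less uniform. Of 26 measured, 19 were higher and 7 lower with diet among wild types, where 44.9% and 55.0% of all genes were. By at least 2-fold 4 were higher and 1 lower, against 0.488% and 0.564% of all genes. The median was 0.24 against -0.03 over all genes. In knockout on control diet 17 were higher and 9 lower, where 46.6% and 53.3% of all genes were, with a median of 0.12 against -0.02. With diet in knockout 10 were higher and 16 lower, where 52.2% and 47.7% of all genes were, with a median of -0.07 against 0.01. In knockout on high-fat diet 7 were higher and 19 lower, where 54.0% and 45.9% of all genes were, with a median of -0.11 against 0.02. Moxd1, which encodes a monooxygenase-like protein, was the extreme, at 4.03 for wild type and 9.04 for knockout on control diet, and at 9.24 and 7.44 on high-fat diet. The wild type on control diet was the lowest array for 13 of the 26, against 22.9% of all genes.

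Growth hormone signalling genes held 16 measured members, with medians between -0.07 and 0.05 over the 5 comparisons. Socs2 was at least 2-fold lower for diet among wild types (-1.86) and for genotype on control diet (-1.61). Bcl6, a repressor of female-biased genes, went the other way: it read 6.53 for wild type and 7.46 for knockout on control diet, and 7.70 and 7.38 on high-fat diet. Stat5b, the main transducer of growth hormone in liver, had a range of 0.31 over the 4 arrays.

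Transcripts of the acute phase response and of other tissues also differed between the arrays. The 23 measured acute phase genes were all higher in knockout on control diet, where 46.6% of all genes were. Their median was 0.51 against -0.02 over all genes. Of the 23, 18 were lowest in the wild type on control diet, against 22.9% of all genes. The list's mean log2 value over 24 genes with a probe set was 9.10 for wild type and 10.52 for knockout on control diet, and 10.004 and 10.14 on high-fat diet. Its low array was thus the high array of Cyp2b9 and its high array the low one. This holds for the control diet arrays only. On high-fat diet Cyp2b9 was higher in knockout, at 8.60 against 7.61. The acute phase list differed little there, with a median of 0.08 against 0.02 over all genes. Of its genes 14 were higher and 9 lower in knockout, where 54.0% and 45.9% of all genes were. Saa2, a serum amyloid gene, read 4.97 and 12.34 on control diet and 10.73 and 10.83 on high-fat diet. Exocrine pancreas markers averaged 5.06 for wild type and 7.34 for knockout on control diet, and 7.06 and 8.30 on high-fat diet. Of these markers, 13 of 13 measured genes were lowest in the wild type on control diet, against 22.9% of all genes. Skeletal muscle markers averaged 4.73 in the high-fat wild type and 3.66 to 3.80 on the other arrays. Kupffer cell markers averaged between 7.21 and 7.49, and endothelial and stellate markers between 7.03 and 7.17. The part of these differences in the Cyp2b values was not tested.

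**Figure D4:**
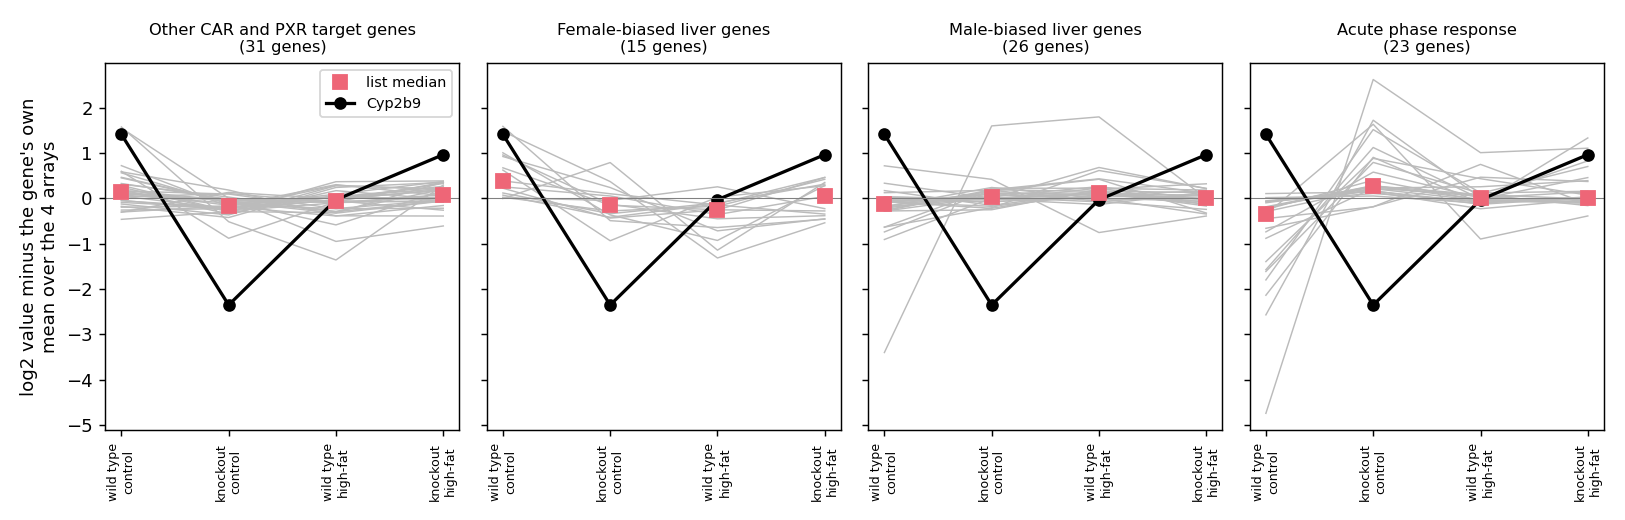
Log2 value minus the gene's own mean over the 4 arrays (vertical axis) for the genes of 4 lists (grey lines), their median (squares) and Cyp2b9 (black). In the acute phase list 18 of 23 genes (22.9% of all genes) are lowest in the wild type on control diet, where Cyp2b9 is highest. In the knockout on control diet, where Cyp2b9 is lowest, 19 of 23 genes peak (20.1% of all genes). On high-fat diet Cyp2b9 is higher in knockout, while 14 acute phase genes are higher and 9 lower (54.0% and 45.9% of all genes).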

How the data were processed

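The 4 arrays were deposited as 1 table of log2 expression values per probe set, which the authors made by RMA (robust multi-array averaging). Per the submitters' processing notes they used Affymetrix Expression Console; its version, the probe set library and the build are not given in the sources used. The method subtracts background, equalises the arrays' distributions and compresses differences between dim probe sets. Signal over background is unknown here.

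Of 41345 probe sets, 23521 carried 1 symbol, 1814 several and 16010 none; the last 2 kinds were not named. A gene was read from its probe set with the highest mean, and genes below the 40th percentile of means (3.47) were left out of counts over genes. Differences between arrays are subtractions of log2 values, counted at 2-fold, with 1 array per group and no test. The members were named in full; from each list up to 4 members that reached 2-fold in a comparison of 2 arrays and had the widest range could be named, defining markers, and the 5 genes most like each member with a range of at least 1 log2 unit. Members, lists and rules were chosen with earlier results of these data known. Other normalisations, probe set rules, filters and folds were tried. The counting was tested on simulated data. Python 3.11.15, pandas 2.3.3, NumPy 2.4.6, Biopython 1.88 (global alignment of promoters), matplotlib 3.10.9 and, for other normalisations, limma 3.58.1 in R 4.3.3 were used. Promoters were taken from RefSeq (GRCm38.p6).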

Additional observations from a re-analysis of the deposited data

Results flagged for a closer look

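The diet difference of Cyp2b9, and with less certainty that of Cyp2b13, had opposite signs in the genotypes. On high-fat diet Cyp2b9 was lower by -1.44 in wild type and higher by 3.32 in knockout, a difference of diet differences of 4.76 on the log2 scale. Cyp2b13 gave -1.67 and 0.58, a difference of 2.25, but its knockout values of 2.95 and 3.52 lay below and at about the filter value of 3.47, so the sign in knockout is uncertain. With 1 array per group the difference between the genotypes was not tested for either gene.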

How the results depend on the processing

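Under 3 other normalisations between arrays (cyclic loess, quantiles, median centring) and 2 other rules for a gene's probe set, all 125 recomputed differences of the members moved by less than 1 SD of that comparison over all genes, and none changed direction. Those of Cyp2b9 spanned -1.45 to -1.39 for diet in wild type, 3.28 to 3.34 for diet in knockout, -3.78 to -3.74 for genotype on control diet and 0.93 to 1.02 for genotype on high-fat diet. The probe set rules could not move a member, as each has 1 probe set. Of 45 recomputed counts of members at least 2-fold different, 39 were within 1.5 times the reported count. For genotype on high-fat diet the count went from 0 to 1, Cyp2b9, after median centring and when counted at 1.5-fold. With the filter at the 60th percentile, which left 1 member, Cyp2b9, the count went from 2 to 1 for diet in wild type, genotype on control diet and the difference of diet differences. Counted at 3-fold it went from 2 to 1, Cyp2b13, for diet in wild type. Of 325 list medians, 317 moved by less than 0.1. With the dimmest probe set the CAR and PXR median for diet in wild type went from -0.19 to -0.31, and those of the cluster neighbours from -0.56 to -0.26 for diet in wild type, from -0.54 to -0.34 for genotype on control diet and from 0.69 to 0.35 for the difference of diet differences. With the mean of probe sets the neighbours' median for diet in knockout went from 0.12 to 0.01. For the difference of diet differences, the growth hormone median went from 0.04 to -0.06 after loess, and the sex chromosome median from 0.34 to 0.24 after loess and to 0.23 after quantile normalisation. No array could be left out, since each group has 1, and no paired analysis was possible because no group has a second array. The number of arrays and the pooling limit the precision, and the means of the 4 members other than Cyp2b9 differed from the filter value by -0.31 to 0.21.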

Other observations

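Of the 13308 genes above the filter, 397 others had the order of arrays of Cyp2b9, which is also that of Cyp2b13. Among the 256 genes with a range of at least 1 log2 unit, 6 others had that order: Cyp2b13, Acot2, Acot3, Cyp2j9, Gpd1l and Slco1a4, named after their values were seen. With Cyp2b9 itself counted, the order was held by 2.73% of the wide-range genes and by 2.99% of all genes above the filter, so it was no more common among wide-range genes. With the largest absolute difference as the measure of likeness, 3 of the 5 genes most like Cyp2b9 remained (Acot3, Slco1a4 and Acss3), and all 5 of those most like Cyp2b13.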
